A study of Homo sapiens with 6 samples.

Results

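The baseline state of PANC1, a cell line grown from a human pancreatic ductal carcinoma, was described here from the cells that received vehicle (0.1% DMSO, 48 h) and no drug. The members were chosen by condition: 3 of the 6 samples of the study, namely the 2 RNA-seq libraries and the 1 DNaseI library of vehicle-treated cells, and all 20461 genes of the expression table. The other 3 samples came from the same line exposed to 50 nM gemcitabine, a nucleoside analogue, and entered only as a second list of DNaseI peaks. Each condition had 2 biological replicates for RNA and 1 for DNaseI, so the peaks had no replicate check. PANC1 is a single established line, and the cells described as untreated had received DMSO.

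Active genes are generally preceded by a short stretch of DNA from which nucleosomes have been displaced by transcription factors and the polymerase machinery. DNaseI, an endonuclease, cuts such stretches more readily than DNA wrapped in nucleosomes, so that an excess of cut fragments marks an accessible region. Most promoters of broadly used genes lie in CpG islands, whereas many promoters of tissue-restricted genes are poor in CpG and some carry a TATA box.

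A promoter is called open below where a vehicle DNaseI peak lay within 1 kb of any annotated transcription start of the gene on hg19. A promoter without such a peak is one at which none was called, and the read depth behind the calls is not given in the sources used here. Among 19606 genes with a nuclear start, 4290 were open, 21.9% (95% Wilson interval 21.3 to 22.5). Internal annotated starts count as starts here, and 18.3% had a peak when the 5′ end of the gene alone was used. All such intervals cover counting error only. RNA levels are given as FPKM, in which the fragments of a gene are divided by the length of its transcripts in kilobases and by library size, for vehicle library 1 and vehicle library 2 in that order. Of all 20461 genes, 11763 (57.5%) had a mean of at least 1 FPKM, and 3465 (16.9%) had no fragment in either library.

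Examples of promoters from the range of states found are printed below, as the 250 bases upstream of the start on the strand of the gene. ACTG1 was among the most abundant genes and had no peak within 5 kb, GAPDH was abundant and had a peak only in the gemcitabine list, CGA and KHSRP were expressed and open, DYNLRB2 was open with no fragment, and INS had neither fragment nor peak. Capitals mark motif matches on either strand, an opposite-strand match being written as its reverse complement. The TATA box was searched with the letters TATAAA. For the CCAAT box, bound by NF-Y, those 5 letters were used. Motifs of the Sp family, called GC boxes, were searched as GGGCGG. Sites of ETS factors were searched with the letters CCGGAAG. The cAMP response element was searched as TGACGTCA. Dimers of FOS and JUN bind the AP-1 site, searched as TGAGTCA. The E-box of MYC and USF factors was searched as CACGTG. A palindromic NRF1 motif was searched as well and had no match in these 6. The sequences were taken from RefSeq promoter windows (GRCh38.p14), and each matched hg19 exactly at 1 place.
ACTG1: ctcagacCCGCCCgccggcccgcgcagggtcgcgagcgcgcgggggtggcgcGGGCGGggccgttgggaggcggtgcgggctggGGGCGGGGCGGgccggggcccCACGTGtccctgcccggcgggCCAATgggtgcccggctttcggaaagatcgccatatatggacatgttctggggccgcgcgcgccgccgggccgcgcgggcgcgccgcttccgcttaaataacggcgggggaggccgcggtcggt
GAPDH: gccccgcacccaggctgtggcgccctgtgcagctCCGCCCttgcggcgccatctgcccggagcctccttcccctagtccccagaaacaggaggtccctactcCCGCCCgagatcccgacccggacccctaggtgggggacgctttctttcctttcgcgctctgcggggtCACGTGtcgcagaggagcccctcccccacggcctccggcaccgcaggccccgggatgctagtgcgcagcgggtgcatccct
CGA: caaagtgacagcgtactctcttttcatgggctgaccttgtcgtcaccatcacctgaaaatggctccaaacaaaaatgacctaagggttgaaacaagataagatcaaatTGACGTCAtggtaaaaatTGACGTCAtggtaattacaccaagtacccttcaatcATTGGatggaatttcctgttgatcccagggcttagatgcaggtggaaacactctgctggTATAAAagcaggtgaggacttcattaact
KHSRP: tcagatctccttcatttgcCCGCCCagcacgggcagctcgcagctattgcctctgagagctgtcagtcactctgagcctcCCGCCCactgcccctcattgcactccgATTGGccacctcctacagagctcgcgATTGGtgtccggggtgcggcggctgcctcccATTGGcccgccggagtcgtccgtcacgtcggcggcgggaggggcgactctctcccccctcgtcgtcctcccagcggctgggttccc
DYNLRB2: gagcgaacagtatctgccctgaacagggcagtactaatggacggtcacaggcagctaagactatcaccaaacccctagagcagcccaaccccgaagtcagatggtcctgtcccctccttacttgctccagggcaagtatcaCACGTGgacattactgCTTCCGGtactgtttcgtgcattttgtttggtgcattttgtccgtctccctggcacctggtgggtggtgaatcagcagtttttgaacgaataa
INS: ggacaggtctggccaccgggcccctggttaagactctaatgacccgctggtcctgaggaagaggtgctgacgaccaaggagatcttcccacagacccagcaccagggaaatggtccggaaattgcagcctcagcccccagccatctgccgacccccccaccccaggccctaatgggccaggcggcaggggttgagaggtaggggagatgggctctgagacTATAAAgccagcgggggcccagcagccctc

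On hg19 these stretches lie at chr17:79479826-79480075 (minus strand) for ACTG1, chr12:6644180-6644429 (plus) for GAPDH, chr6:87804825-87805074 (minus) for CGA, chr19:6424823-6425072 (minus) for KHSRP, chr16:80574381-80574630 (plus) for DYNLRB2 and chr11:2182440-2182689 (minus) for INS. The ACTG1 stretch held 4 GC boxes, 2 of them overlapping, and 1 CCAAT box. That of CGA held 2 cAMP response elements, an opposite-strand CCAAT box and a TATA box. KHSRP, which encodes an RNA-binding splicing and decay factor, had 3 opposite-strand CCAAT boxes and 2 GC boxes. INS had a TATA box alone. A match is a description of letters and not of a bound site.

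The 2 RNA libraries held 15153593 and 15766237 fragments on genes. They detected 16194 and 16269 genes with at least 1 fragment, and 11778 and 11725 genes at 1 FPKM or more. Across the 20461 genes, Pearson's r between the libraries was 0.996 and Spearman's rho 0.982 on log2(FPKM + 1), as a description over genes that share the same 2 libraries. Among 11437 genes with a mean of at least 50 fragments, the median fold between the libraries was 1.05 and 59 genes (0.516%) differed by more than 1.5-fold. None of 139 genes with the most fragments did so, with a maximum of 1.12-fold. The largest difference, at ENSG00000265365.1, was 149 against 17.9 fragments, and several of the next lay at readthrough genes, which share exons with another gene. DNAJC25-GNG10 had 27.6 and 189 fragments, TGIF2-RAB5IF 16.6 and 94.7, and PTGES3L-AARSD1 272 and 74.4. Values of such genes are uncertain.

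Abundant transcripts came first. By fragments, the most abundant gene in both libraries was ACTB, cytoplasmic beta-actin, with 161475 and 161570 fragments. It was followed by ACTG1, cytoplasmic gamma-actin, with 72937 and 72334, and by SLC7A5, the light chain of a large neutral amino acid transporter, with 70854 and 70176. CLU, the secreted chaperone clusterin, had 66208 and 65235 fragments. COL1A1, a chain of type I collagen, had 62075 and 62658. The actin cross-linker FLNA, the elongation factor EEF2 and the glycolytic enzymes GAPDH, PKM and ENO1 completed the first 10. Genes of the cytoskeleton, of translation and of glycolysis thus made up most of this group. The first 10 genes took 4.42% and 4.25% of all fragments, and 1177 and 1197 genes were needed to reach 50% of them.

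Per length, the order was different. GPX4, a selenium-dependent lipid hydroperoxide reductase, was listed highest, at 35166 and 30889 FPKM, and ACTB next, at 15898 and 14413. TXNRD1, the cytosolic thioredoxin reductase, was listed at 8746 and 8869 FPKM, with the quantification marked as failed in the table. CLU (8314 and 7498), the ribosomal protein RPS3 (5152 and 4819), the ferritin heavy chain FTH1 (4908 and 4561) and ACTG1 (4751 and 4413) came after these. CGA, the alpha subunit shared by the glycoprotein hormones and normally a product of placenta and pituitary, had 3766 and 3504 FPKM from 30644 and 30980 fragments. The glycolytic aldolase ALDOA, the phosphatase PTP4A1, the light chain of MHC class I B2M, the ferritin light chain FTL, the ribosome-bound scaffold RACK1 and the actin-sequestering TMSB10 also stood among the first 20. The remaining members of these 20 were ribosomal proteins.

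The rank of GPX4 came from FPKM and not from fragments: it held 2823 and 2605 fragments and was 1229th by that measure. Dividing fragments by FPKM and library size gives the transcript length that the FPKM implies, which was 5.32 bases for GPX4, whereas its annotated transcripts run from 274 to 1184 bases. Genes whose annotation carries a selenocysteine codon, at which UGA is read as an amino acid instead of a stop, shared this feature. For 19 such genes with at least 50 fragments, the median implied length was 170 bases (quartiles 40.4 and 600). For the 11033 other genes it was 1973 bases (1196 and 3233). An implied length under 200 bases was found for 11 of the 19 (57.9%) and for 28 of the others (0.254%). Of those 28, 22 have no annotated transcript as short as 200 bases. The longest implied length among the others was 107107 bases. The proteasome subunit PSMA8 had 77 and 99 fragments but 0.0812 and 0.0963 FPKM. Its implied length was 64120 bases, and its longest annotated transcript has 1876. The lowest FPKM classes below can therefore hold detected genes. SELENOS, a membrane selenoprotein of the endoplasmic reticulum, was listed at 1611 and 2283 FPKM from 581 fragments in each library. The mitochondrial thioredoxin reductase TXNRD2 had 1737 and 2007 FPKM from 1015 and 1129 fragments. SELENOP, a secreted selenium carrier, had 102 and 20.8 FPKM from 239 and 261 fragments. Of 99 genes at 1000 FPKM or more, 8 were selenocysteine genes. Their levels per length are therefore printed as listed and not ranked further, although these genes stay counted in the FPKM classes below. The reason for the short or long implied lengths was not tested.

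**Figure D1:**
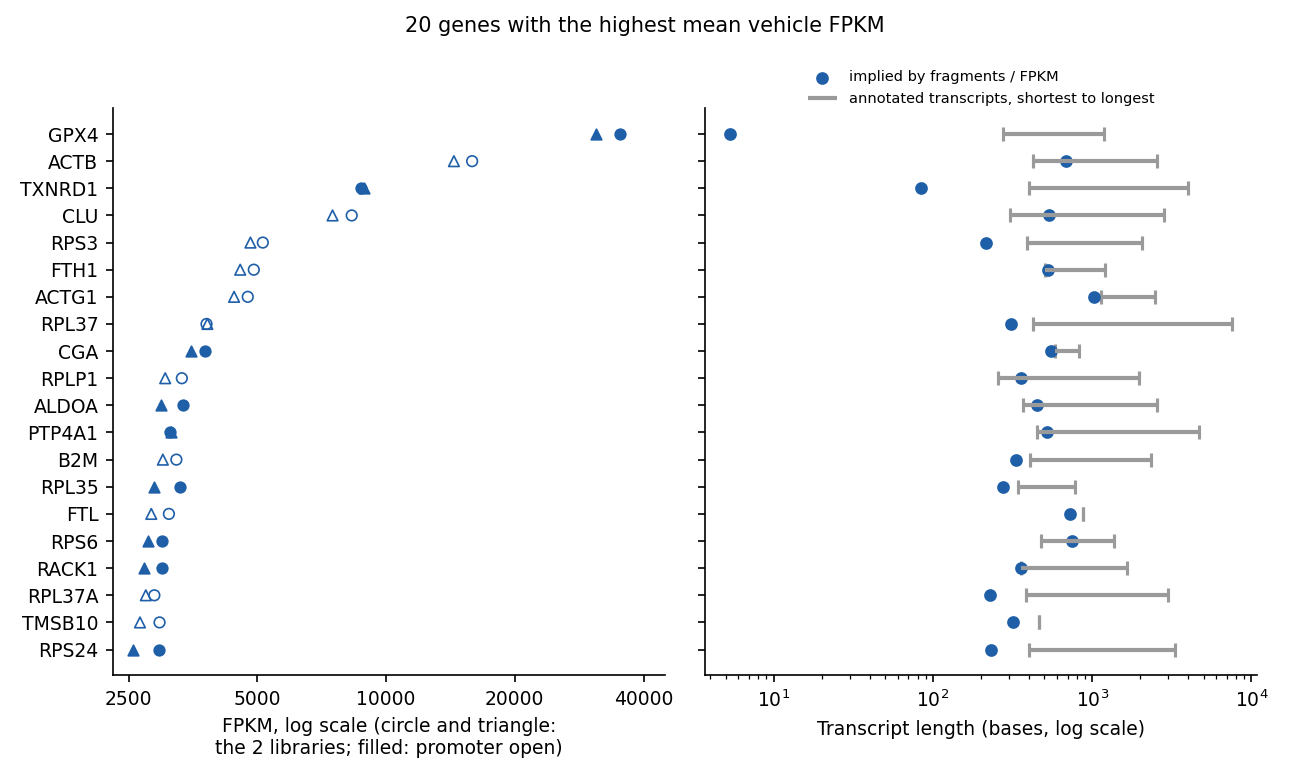
The 20 genes with the highest mean FPKM in vehicle-treated PANC1. Left, FPKM on a log axis, with a circle for library 1 and a triangle for library 2, filled where the promoter was open. Right, on a log axis in bases, the transcript length implied by fragments and FPKM (points) beside the shortest and longest annotated transcript (bars). GPX4 lies at 5.32 bases, far from its annotated 274 to 1184, and TXNRD1 also lies far below its annotated range. Several others lie below their shortest annotated transcript by smaller factors, such as RPS3 (214 bases, shortest 387) and FTL (727, shortest 871).

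The promoters of these abundant genes were in mixed states. Of the 97 genes at 1000 FPKM or more with a start, selenocysteine genes included, 54 were open (55.7%, interval 45.8 to 65.2) and 43 were not. Open promoters included CGA (peak chr6:87804002-87805141), ALDOA (chr16:30076432-30077458), PTP4A1 (chr6:64281031-64282751), RACK1 (chr5:180670545-180671655) and, among the genes with most fragments, COL1A1, PKM and ENO1. The peaks of PTP4A1 and RACK1 covered starts inside the gene, whose 5′ ends are at 64231651 and 180675096. The peak that made GPX4 open ended 904 bases before the nearest start. Of the 43 without a peak, 35 also lacked one within 5 kb and 8 had a promoter peak in the gemcitabine list.

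The 10 most abundant genes with no vehicle peak within 5 kb of any start were ACTB, RPS3, ACTG1, RPL37, RPLP1, B2M, FTL, RPL37A, TMSB10 and RPL8. RPL37, B2M, FTL and TMSB10 had a promoter peak in the gemcitabine list. ACTB and ACTG1, the leading genes by fragments, had none within 5 kb in either list. Among all 11559 genes at 1 FPKM or more with a start, 7092 (61.4%) had no vehicle peak within 5 kb, and 5450 (47.1%) had none in either list.

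Openness rose with expression. Among 3095 genes with no fragment, 29 were open (0.937%, interval 0.653 to 1.34). The share was 3.53% above zero and under 0.1 FPKM (n = 3028), 11.2% from 0.1 to 1 (n = 1924) and 22.7% from 1 to 10 (n = 3712). From 10 to 100 FPKM it was 37.4% (36.3 to 38.6, n = 6401), and from 100 to 1000 it was 47.7% (45.1 to 50.4, n = 1349). The intervals of neighbouring classes did not overlap up to that point, whereas that of the class at 1000 FPKM or more overlapped the one below it. Over the threshold of 1 FPKM, 3938 of 11559 genes were open (34.1%, 33.2 to 34.9), and below it 352 of 8047 (4.37%, 3.95 to 4.84).

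**Figure D2:**
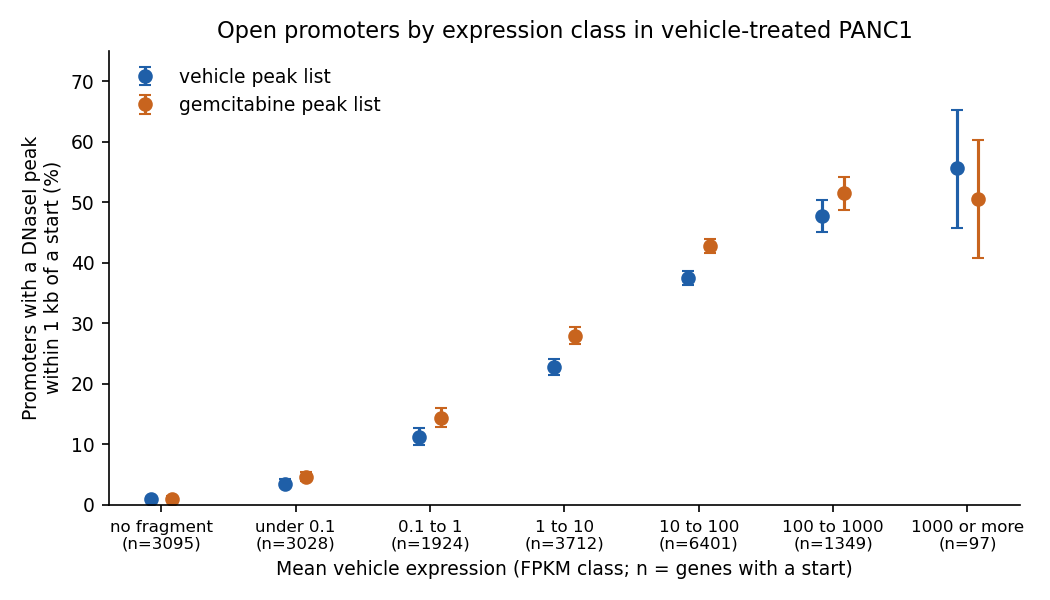
Share of promoters with a DNaseI peak within 1 kb of a start (y axis, percent) by mean vehicle FPKM (x axis, 7 classes, with the number of genes with a start). Blue points use the vehicle peak list and orange points the gemcitabine list, and bars are 95% Wilson intervals. The vehicle share goes from 0.937% for genes with no fragment to 55.7% at 1000 FPKM or more.

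The strength of called peaks differed little between these classes. The score of a peak is −10 log10 of its p-value, and the median score of the best promoter peak was 71.6 for genes with no fragment, 77.3 from 1 to 10 FPKM and 83.6 from 100 to 1000 FPKM. The quartiles of the last class, 66.2 and 111, spanned the other medians. Peaks with a score under 50 are missing in every class, so presence and strength of a peak cannot be weighed against each other here.

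Peaks sat over the start and leaned upstream. The best peak covered the start in 90.0% of the 4290 open promoters, and its centre lay a median of 78.5 bases upstream (quartiles 203 upstream and 12 downstream). The centre was upstream in 70.4%. The peak covered the start at 94.4% of open genes of 1000 FPKM or more, and at 65.5% of the 29 open genes with no fragment. Of all 9605 vehicle peaks, 3655 (38.1%) lay within 1 kb of a start and 778 served 2 or more genes.

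**Figure D3:**
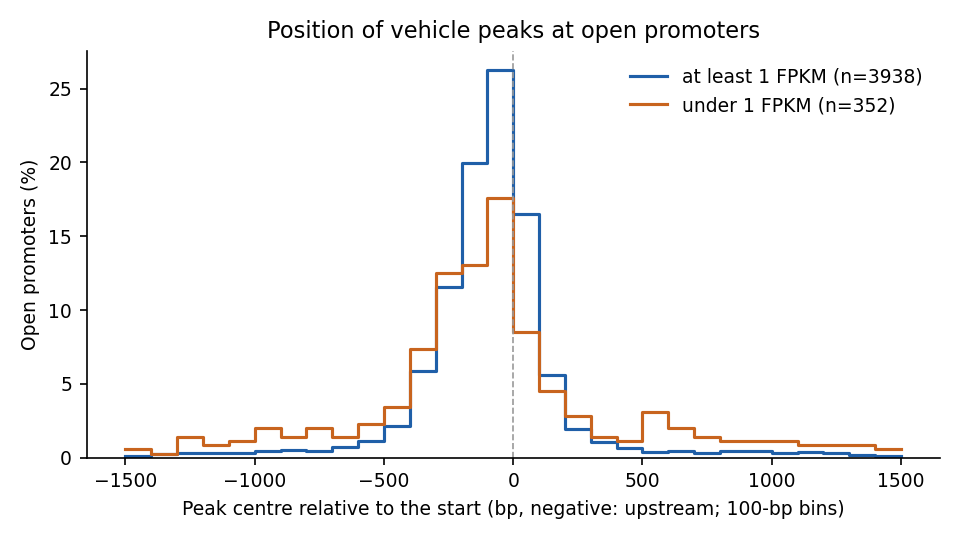
Position of the centre of the best vehicle peak relative to the nearest start of the gene (x axis, bases in bins of 100, negative upstream), as percent of open promoters (y axis), for genes at 1 FPKM or more (blue, n = 3938) and under 1 FPKM (orange, n = 352). Both curves are highest just upstream of the start, and the orange one has the wider flanks.

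Of the 4290 open promoters, 3938 were at genes of 1 FPKM or more, and the genes with the best-scoring peaks were likewise expressed with 2 exceptions. CDC27, a subunit of the anaphase-promoting complex, had a score of 465 and 112 and 113 FPKM. This peak (chr17:45212668-45214888) lay over an annotated start inside the gene and not at its 5′ end (45266788). One peak with a score of 348 was shared by HNRNPUL2, its readthrough gene with BSCL2, and TTC9C. KHSRP followed with 334 at 321 and 285 FPKM, then TAF12, a subunit of the general factor TFIID (303), TOMM40, the pore of the outer mitochondrial import complex (294), and the transcription factor SP1 (291), which binds GC boxes and had 28.5 and 29.8 FPKM. The exceptions were LINC00273, with the best score of all (539) and 3 and 5 fragments, and SYNGR4 (285), with 3 fragments in each library and the start of TMEM143 nearby.

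The share open was higher beside a neighbouring start at every level. Among genes with no fragment, 5.86% were open where another gene of the table started within 2 kb and 0.461% where none did. From 10 to 100 FPKM the shares were 49.5% and 31.9%, and from 100 to 1000 FPKM 52.8% and 45.1%, where the intervals overlapped. Genes with more annotated starts were also open more often: from 10 to 100 FPKM the share was 29.5% with 1 start and 1070 of 2674 genes (interval 38.2 to 41.9%) with 10 or more. The increase with expression was present in each of these strata, apart from genes with 1 start, where the share was 29.5% from 10 to 100 FPKM and 28.2% (11 of 39) above that.

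Of the 29 open genes with no fragment, 16 had the start of another gene within 2 kb, and that other gene had at least 1 FPKM in all 16 cases. Among all 3095 genes with no fragment, 89 (2.88%) had such an expressed neighbour. The haematopoietic gene ARHGAP9 lay beside MARS1, the cytosolic methionyl-tRNA synthetase, at 263 FPKM. ASPDH lay beside JOSD2 (21.9 FPKM) and PLK5 beside ADAMTSL5 (9.87 FPKM).

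The other 13 had no start of another table gene within 2 kb. They were MIR9-1HG, the host of a neural microRNA (peak chr1:156426149-156427607, score 156), GYPC, an erythrocyte membrane sialoglycoprotein (chr2:127414655-127416043, score 127), HJV, a hepcidin regulator of liver and muscle (score 94.9), the mucin MUC3A (64.9), DYNLRB2, a dynein light chain of ciliated cells (61.1), NME5, DPPA4, TDRD1, the histone gene HIST1H4B and 4 uncharacterised or non-coding genes. NME5 and DYNLRB2 are linked to cilia, and DPPA4 and TDRD1 to pluripotent and germ cells. The peak of TDRD1 (score 50.3) was just above the minimum of 50 for a call. The peaks of GYPC, TDRD1 and DPPA4 lay 890, 409 and 91 bases from the nearest start. Starts of genes outside the table were not searched as neighbours. With no fragment, these 13 genes lay under the limit of 3 fragments that a count of 0 allows. That limit is 0.198 and 0.190 CPM in the 2 libraries (counts scaled to library size).

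Some genes without fragments lay side by side along chromosomes. There were 82 runs of at least 5 consecutive table genes with no fragment, holding 784 genes. Of these genes 1 was open, beside 0.937% of all genes with no fragment. Whether there were more such runs than a random order would give was not tested. The longest ran from OR4C13 to LRRC55 on chromosome 11 (49973943 to 56959191) and held 47 genes, 44 of them olfactory receptors. Inside it lay 11 vehicle peaks, none within 1 kb of a start of these genes. The next was a block of 35 genes on chromosome 21 with 32 keratin-associated proteins of the hair shaft, and then 31 genes of the epidermal differentiation cluster on chromosome 1, from FLG2 to SPRR2A, with no peak in either block. By chromosome, the share of expressed genes that were open was highest on chromosome 19 (50.6%) and lowest on chromosome 18 (19.8%), chromosome 4 (23.2%) and X (23.9%).

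Large gene families fell at either end. Of 354 olfactory receptors, 342 had no fragment, none reached 1 FPKM and none was open. Keratin-associated proteins (90 of 92 with no fragment), beta-defensins (34 of 39) and taste receptors (18 of 27) were likewise closed throughout, and of 51 clustered protocadherins only PCDHAC2 reached 1 FPKM (4.22 and 4.00), with none open. At the other end, 78 of 81 cytosolic ribosomal proteins were expressed, with a median of 1112 FPKM, and 44 were open (54.3%, interval 43.5 to 64.7). Proteasome subunits were open in 20 of 38 cases (52.6%), with a median of 111 FPKM. Mitochondrial ribosomal proteins were expressed in 76 of 76 cases, with a median of 73.9 FPKM, and open in 26 (34.2%). Over all genes, 55.7% were open at 1000 FPKM or more, 47.7% from 100 to 1000 and 37.4% from 10 to 100. Each of these family shares lay near that of the class holding its median. Of all genes with no fragment, 0.937% were open. Ribosomal protein genes have many processed copies in the genome, so their fragments may be split.

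In some families openness and expression parted. Of 35 canonical histone genes, 12 reached 1 FPKM and 20 were open (57.1%, interval 40.9 to 72.0), so that openness exceeded expression. H4C3 had 1 fragment in each library under a peak with a score of 107, and H4C8 had 12 and 10 fragments under a score of 138. The most abundant, H2BC12, had 62.8 and 63.6 FPKM and was also open. Several open histone genes share a peak with a neighbour, such as H2AC6 and H2BC4. Canonical histone messages end in a stem-loop and lack a poly(A) tail, and the libraries were made with an mRNA kit; the part of this in their low levels was not tested.

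Several families of developmental regulators had few open promoters. Of 38 HOX genes, which set position along the body axis, 21 (55.3%) reached 1 FPKM, near the share of the whole table, and 1 (2.63%) was open. HOXC10 had 64.2 and 73.2 FPKM, HOXD9 39.0 and 31.8, and HOXD8 26.3 and 28.8, all without a vehicle peak. Forkhead factors were expressed in 23 of 49 cases and open in 2 (4.08%), with the mitotic regulator FOXM1 at 102 and 99.5 FPKM and FOXQ1 at 81.9 and 75.1. For SOX factors the counts were 7 expressed and 2 open of 19, SOX4 (40.2 and 38.6) being expressed and open. KLF factors were expressed in 12 of 16 cases and open in 3 (18.8%, near the whole table), and the 3 expressed of 6 GATA factors had no vehicle peak. ZNF zinc fingers were open about as often as the whole table, with 335 of 493 expressed and 104 open (21.1%).

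Among smaller families, 9 of 55 keratins were expressed, beside 57.5% of all genes. KRT7 led with 1658 and 1551 FPKM, followed by the basal keratin KRT17 with 1535 and 1440. Of 55 cytochromes P450, 9 were expressed, led by CYP51A1, the sterol demethylase of cholesterol synthesis (42.4 and 38.5 FPKM, open). Claudins, which seal tight junctions, were expressed in 7 of 24 cases with none open. The interferon family had 1 expressed member of 20, the epithelial IFNE (1.18 and 1.23 FPKM). Of 65 genes matched by cancer-testis antigen names, 5 reached 1 FPKM and none was open. MAGEA6 had 13.3 and 13.7 FPKM, and SSX2IP was caught by its name although it is no such antigen.

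The labelled cell type was then checked against marker genes. Both epithelial and mesenchymal markers were expressed, whereas acinar enzymes and the main islet hormones were at or near zero. Of 17 epithelial and ductal markers, 11 (64.7%, beside 57.5% of all genes) reached 1 FPKM and 5 (29.4%, beside 21.9%) were open. The simple keratins were high: KRT7 as above, KRT8 with 501 and 471 FPKM, and KRT18 with 356 and 336. KRT7 and KRT8 were open and KRT18 was not, but both best peaks lay away from the annotated 5′ end. That of KRT7 (chr12:52637670-52638670) covered an internal start, with the 5′ end at 52626304. That of KRT8 (chr12:53320678-53321700) lay 425 bases from an internal start, with the 5′ end at 53343738. The surface mucin MUC1 (105 and 138) and the epithelial splicing regulator ESRP2 (18.8 and 17.3) were also expressed and open. The quantification of ESRP2 was marked as failed in both libraries. In contrast, KRT19 had 3.22 and 3.05 FPKM, the adhesion molecule EPCAM 4.29 and 2.86, and CDH1, the cadherin of epithelial junctions, 0.235 and 0.184 from 4 and 7 fragments. ESRP1 had 0.793 and 0.975 FPKM. Also under 1 FPKM were GRHL2 (2 and 5 fragments), CFTR (3 and 3), SPP1 (3 and 2) and OVOL1 (0 and 0). In such bulk RNA, fewer cells with a message and less message per cell cannot be told apart.

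Of 14 mesenchymal markers, 13 (92.9%, beside 57.5% of all genes) reached 1 FPKM and 4 (28.6%, beside 21.9%) were open. The intermediate filament VIM had 448 and 385 FPKM, and the matrix protein TGFBI 220 and 205. The receptor AXL had 87.8 and 88.0, and fibronectin FN1 46.8 and 45.2. These were the 4 with a peak. The peak of VIM covered its 5′ end, whereas the best peaks of the others lay by internal starts. Those of AXL (chr19:41731661-41732178) and FN1 (chr2:216275396-216276309) lay 482 and 723 bases from such starts, with 5′ ends at 41725128 and 216300796. That of TGFBI (chr5:135393892-135394823) covered such a start, with the 5′ end at 135364677. Fibrillin FBN1 (136 and 137), TWIST2 (59.0 and 52.1) and CDH2, the cadherin that often replaces CDH1 (36.1 and 34.4), had no peak. The single member under 1 FPKM was SPARC, with 4 and 3 fragments.

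Fibroblast and stellate markers were mixed, with 9 of 12 expressed (beside 57.5% of all genes) and 1 open. The open share was 8.33% (interval 1.49 to 35.4), and that interval holds the 21.9% open among all genes with a start. COL1A1 had 864 and 867 FPKM and COL3A1 486 and 581. COL1A2, whose product pairs with that of COL1A1 in type I collagen, had 0 and 3 fragments. The fibroblast receptor PDGFRA had none in either library, whereas PDGFRB had 19.1 and 22.6 FPKM. Whether cells other than PANC1 contributed RNA was not tested.

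Markers of other cells differed by list, where 57.5% of all genes were expressed and 21.9% open. None of 17 blood and immune markers reached 1 FPKM, and none was open. Hepatocyte markers gave the same counts, 0 of 14, although 4 of them, ALB among these, had a promoter peak in the gemcitabine list. Of 10 endothelial markers, EGFL7 (42.0 and 38.7 FPKM), the ETS factor ERG (9.42 and 10.0) and SOX17 (2.08 and 2.13) were expressed and none was open, while the endothelial cadherin CDH5 had 0 and 3 fragments. Neuronal markers were expressed in 3 of 11 cases, the tubulin TUBB3 at 38.4 and 32.7 FPKM, the vesicle fusion protein SNAP25 at 7.75 and 10.9, and MAP2 at 3.64 and 4.39. EGFL7 and TUBB3 thus stood near the level of CDH2 given above.

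Acinar enzymes were nearly silent, and islet genes were so in part. No acinar enzyme of 15 reached 1 FPKM, 9 had no fragment in either library, trypsinogen PRSS1 and the lipase PNLIP among them, and none was open. Of 15 islet hormone and granule genes, 7 had no fragment, insulin (INS) and glucagon (GCG) among them. The prohormone convertases PCSK1 (12.97 and 11.01 FPKM) and PCSK2 (2.76 and 3.16 FPKM) and somatostatin (SST, 1.21 and 0.973 FPKM) reached a mean of 1 FPKM, and none of the 15 was open.

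Of 27 pancreatic transcription factors, 8 (29.6%, beside 57.5% of all genes) were expressed and 1 (3.70%, beside 21.9%) was open. The open one was the Notch target HES1 (28.0 and 26.5 FPKM). KLF5, a factor of proliferating epithelium, had 63.2 and 67.0, PAX6, of endocrine cells, 36.0 and 35.6, GATA6 7.97 and 6.10, and the ductal and progenitor factor SOX9 3.90 and 3.36. PDX1, which specifies the pancreas, had 19 and 15 fragments (0.517 and 0.377 FPKM). The acinar factor PTF1A, GATA4 and FOXA2 had no fragment.

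**Figure D4:**
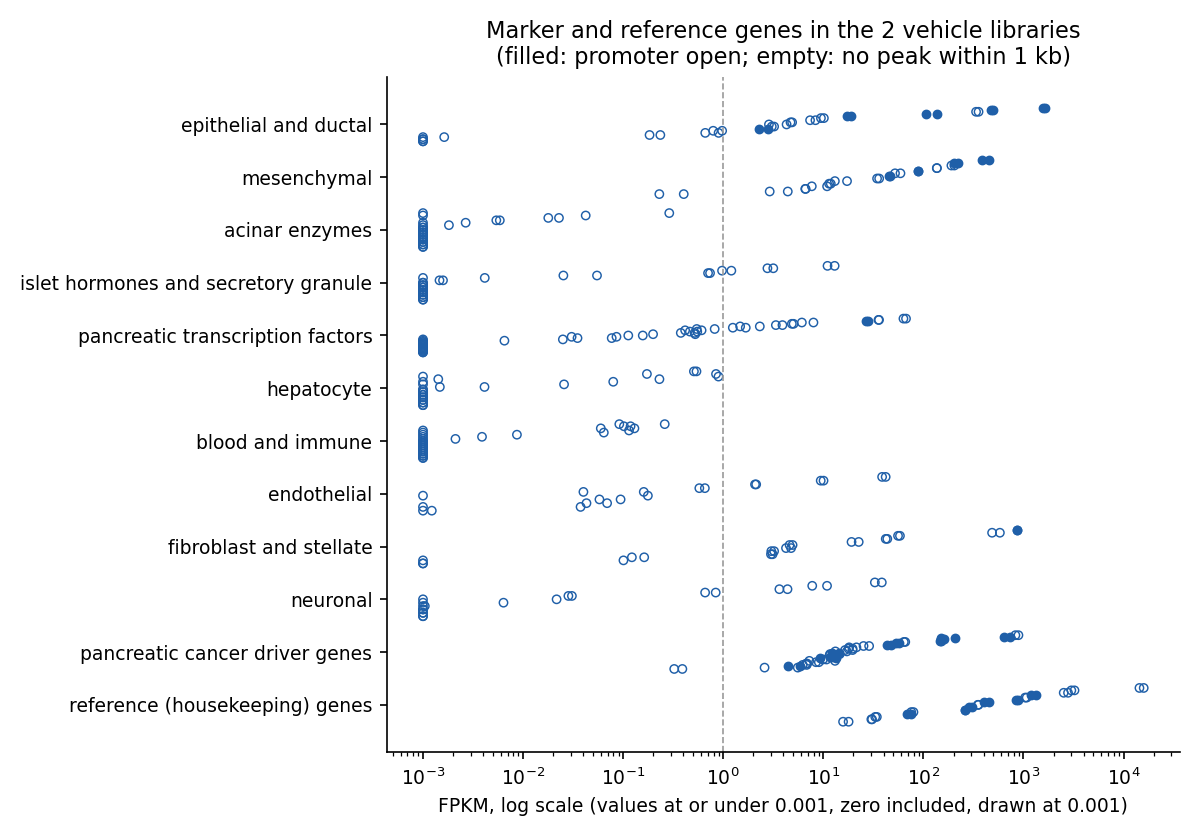
FPKM on a log axis (x axis) of the members of 12 gene lists (y axis) in vehicle-treated PANC1, with 1 point for each gene and library, filled where the promoter was open. Values at or under 0.001, zero included, are drawn at 0.001, and the dashed line marks 1 FPKM. Acinar, hepatocyte and blood markers lie left of the line, and reference genes lie right of it.

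Genes recurrently altered in pancreatic cancer were mostly expressed. Of 26, 25 reached 1 FPKM and 10 were open (38.5%, interval 22.4 to 57.5). Among all genes at 1 FPKM or more, 34.1% were open, which lies inside that interval. SMAD4, the shared mediator of TGF-beta signalling, had 53.3 and 57.3 FPKM and was open. The chromatin remodelling genes SMARCA4 (148 and 147, peak score 182) and ARID1A (14.4 and 12.1, score 123) and the splicing factor SF3B1 (149 and 160, score 134) had the highest scores of the list. The best peaks of SMARCA4 (chr19:11146136-11147032) and ARID1A (chr1:27097450-27098741) lay 438 and 713 bases from internal starts, far inside the genes, whose 5′ ends are at 11071608 and 27019727, whereas that of SF3B1 covered a start at its 5′ end. The one member under 1 FPKM was the ubiquitin ligase RNF43, with 0.324 and 0.390. Fragments count RNA of any sequence, so the presence of a message does not speak of mutations in it.

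One gene of this list went against what is generally known of the line. PANC1 is commonly described as having lost CDKN2A, which encodes the inhibitors p16 and ARF, by homozygous deletion. Here CDKN2A had 6219 and 6052 fragments, 739 and 634 FPKM, and a peak over its start at chr9:21994087-21995670. CDKN2B next to it had 427 and 490 fragments and a peak at chr9:22008735-22010004, and MTAP on the other side had 2846 and 3037 fragments with no promoter peak. The gene was thus detected in both RNA libraries and in the DNaseI library. No genotype was examined here, so the identity of the line was not tested beyond the markers above. The cells are called PANC1 as labelled, and this doubt applies to all values given.

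Reference genes were all expressed, 15 of 15, and 6 of them were open (interval 19.8 to 64.3%). That interval holds the 34.1% open among all genes at 1 FPKM or more. PGK1, RPLP0, SDHA, TFRC and POLR2A were among those with a vehicle peak. TBP (17.9 and 15.7 FPKM), HPRT1 (75.6 and 79.5), YWHAZ (350 and 355), PPIA (1077 and 1039) and GUSB (30.7 and 30.2) were among those without. RNA levels of this list ran from that of TBP to that of ACTB.

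Comparison with the gemcitabine list showed how far the vehicle calls stand alone. Of the 4290 open promoters, 3251 (75.8%, interval 74.5 to 77.0) also had a peak in that list. Expressed open genes were shared at 76.5% and open genes under 1 FPKM at 67.6%. Of the 7621 expressed genes with no vehicle peak, 19.7% had a promoter peak in the gemcitabine list, against 2.70% of the 7695 genes under 1 FPKM with no vehicle peak. Each list rests on 1 library, so that drug and library cannot be told apart in these differences.

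The promoter sequence, which played no part in the choice of members, was examined for 14984 of the 19606 genes (76.4%) with a RefSeq window from 250 bases before to 50 after the start. Each gene was given the window of its most upstream listed start, whereas a peak at any annotated start made a gene open. The window of an open gene is therefore not always where its peak lay. Windows with a CpG observed-to-expected ratio of at least 0.6 and at least 50% GC were called CpG-rich, and 64.5% of all windows were. The share was 85.6% for expressed open genes and 81.2% for expressed genes with no peak. It was 58.6% for open genes under 1 FPKM, 32.7% for genes under 1 FPKM with no peak, and 20.9% for genes with no fragment. CpG content therefore separated expressed from low genes more than open from unopened expressed ones. Among expressed genes, 36.8% of CpG-rich promoters were open (35.7 to 37.8) and 29.7% of CpG-poor ones (n = 1614).

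Openness of expressed genes was lowest in the band of highest GC content. Among expressed genes, 31.2% were open under 50% GC (n = 693), 43.4% from 50 to 60% (n = 1880), 41.3% from 60 to 70% (n = 3706) and 777 of 3108 (interval 23.5 to 26.6%) at 70% or more. The median level in these bands was 14.7, 22.6, 21.5 and 19.96 FPKM, lowest in the band under 50% GC. From 10 to 100 FPKM the shares were 31.1%, 47.9%, 44.8% and 27.1%, and the intervals of the first band (26.4 to 36.2) and the last (25.1 to 29.2) overlapped. At 100 FPKM or more the order at the low end changed, with 61.8% (49.9 to 72.4, n = 68), 52.8%, 57.0% and 34.8% (30.1 to 39.9, n = 362). The gemcitabine list had 30.8% in the top band of expressed genes. The cause of these differences was not tested.

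CCAAT boxes, the element bound by the trimeric factor NF-Y, were the motif that differed most, in percentage points, between expressed genes with and without a peak. A CCAAT was found on either strand in 36.5% of all windows. It was present in 45.4% of expressed open promoters (43.7 to 47.1) and 32.1% of expressed promoters with no peak (31.0 to 33.3). Within CpG-rich promoters of expressed genes the shares were 45.8% and 31.0%. Within the GC bands, from low to high, they were 45.4% against 39.4%, 53.0% against 42.0%, 47.4% against 33.5% and 33.6% against 24.9%. The intervals overlapped in the lowest band (38.9 to 52.0 and 35.1 to 43.9). Split further by level, the order turned under 50% GC from 10 to 100 FPKM (41.1% against 43.5%) and at 70% GC or more with 100 FPKM or more (29.4% against 30.1%), in both cases with overlapping intervals.

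The number of copies followed the same order. Among expressed genes, 30.7% were open with no CCAAT (29.6 to 31.9, n = 5927), 37.5% with 1 (35.5 to 39.6, n = 2178) and 54.4% with 2 or more (51.7 to 57.2, n = 1282). The median levels of these groups were 20.1, 20.7 and 23.4 FPKM. Their median GC content fell in the same order, at 67%, 64% and 63.2%, and copies were not counted within GC bands. In the gemcitabine list the shares were 35.5%, 43.2% and 59.4%. KHSRP, printed above with 3 copies, belongs to the last group, and the GAPDH stretch, with no vehicle peak, held none.

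**Figure D5:**
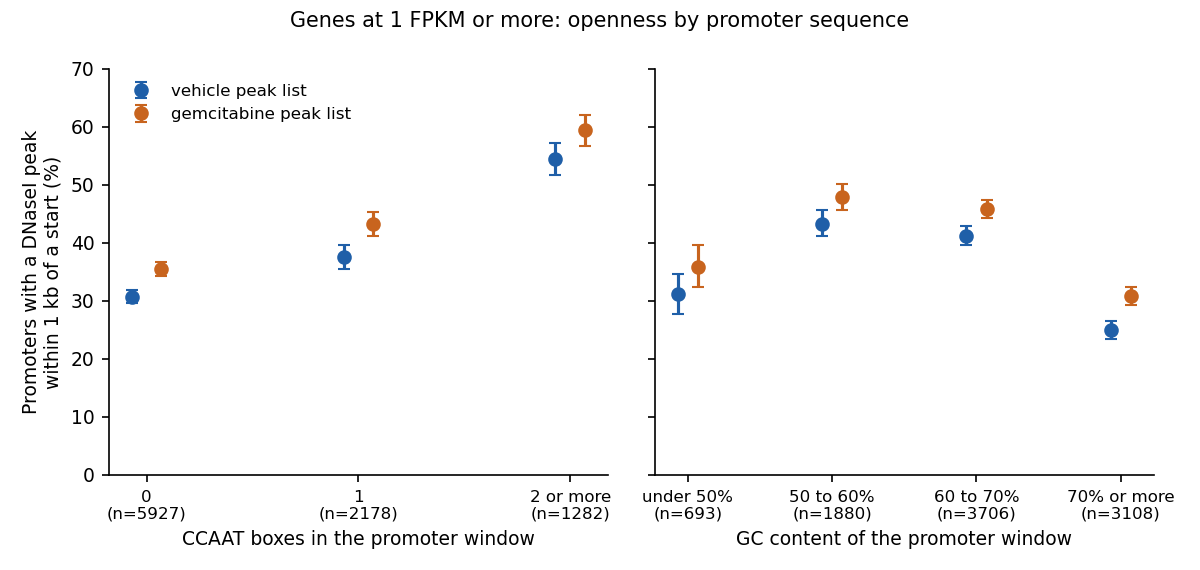
Share of expressed promoters (at least 1 FPKM) with a peak within 1 kb (y axis, percent) by number of CCAAT boxes in the RefSeq window (left) and by its GC content (right). Blue is the vehicle list, orange the gemcitabine list, bars are 95% Wilson intervals and n is the number of genes. The vehicle share goes from 30.7% with no CCAAT to 54.4% with 2 or more, and is lowest, 777 of 3108, at 70% GC or more.

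Other motifs differed less in percentage points, or followed expression. The ETS site was present in 14.3% of all windows, 23.7% of expressed open, 18.3% of expressed with no peak and 4.32% of low genes with no peak. The NRF1 palindrome was far rarer than CCAAT, in 1.78% of all. It was found in 3.36% of expressed open (2.80 to 4.02) and 1.88% of expressed with no peak (1.57 to 2.26), intervals that did not overlap. For the cAMP response element the shares were 2.60%, 4.11% and 2.99%, and for the E-box 8.82%, 11.2% and 9.87%. GC boxes, with 59.5% of all, did not order in that way (70.5% and 72.5%), and neither did AP-1 sites (3.59% of all, 2.97% and 2.69%). TATAAA was found in 9.41% of all windows, in 4.91% and 5.59% of expressed genes with and without a peak, and in 23.4% of genes with no fragment, INS among them.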

How the data were processed

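RNA was measured in 2 vehicle-treated libraries, and DNaseI hypersensitivity in 1. Per the submitters' processing notes, the authors aligned reads to hg19 with TopHat2 2.0.8 and quantified genes with Cuffdiff 2.0.2. The deposited table holds estimated counts of fragments per gene (15153593 and 15766237 in total, fractional where reads map to several genes) and FPKM values that the authors scaled across libraries. Its columns of scaled fragments were not used. Its library numbers 0 and 1 were not tied to replicate numbers in the labels, so libraries are numbered in table order. The deposited peak lists hold the score that the authors obtained from MACS, −10 log10 of the p-value, at a threshold of 1e-05 (minimum 50, ceiling 3100). The version of MACS and the read depth of the DNaseI libraries are not given in the sources used here.

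Genes were joined by identifier to Gencode v44lift37 on hg19, which is later than the annotation the authors used, giving 145512 starts (19619 of 20461 genes matched, 855 had no nuclear start). The 13 mitochondrial genes, 12 of them listed at 0, and 1 mitochondrial peak were left out of the join. A promoter was open where a peak overlapped the 1 kb either side of any start. The join was tested on simulated starts and peaks. Levels are means of both libraries, and 188 genes were marked as failed in at least 1.

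With 1 condition described and 2 libraries, no test was made. Shares have 95% Wilson intervals. A count of 0 allows up to 3 fragments (0.198 and 0.190 CPM). Genes were named by rule: the 20 highest by FPKM, the 10 highest by fragments, the 10 most abundant with no peak within 5 kb, the 10 best peaks overall and at genes with no fragment, the 10 largest folds between libraries, the 3 longest runs without fragments, and members of the lists and families. Members and lists were chosen with earlier results of these data known. The selenocysteine genes, the CDKN2A neighbourhood, the GC bands and the CCAAT copies were added after values were seen. Some list members, PRSS2, PECAM1 and NEFL among them, were not matched in the table, and some members' values are not reported here. Python 3.11.15 with pandas 2.3.3, numpy 2.4.6, scipy 1.17.1 and matplotlib 3.10.9 was used. Alternatives covered the expression threshold, window, annotation, peak score, peak list and each library left out.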

Additional observations from a re-analysis of the deposited data

How the results depend on the processing

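No paired analysis was possible because no result comes from a test and the DNaseI data have 1 library. Only peaks past the caller's threshold are known, so a promoter with no peak may be accessible below it. The share of all promoters open (21.9%) was 21.1% with a window of 500 bp, 23.6% with 2.5 kb, 26.05% with 5 kb, 21.2% by peak centre, 18.3% at the 5′ end alone, 21.2% with starts of protein-coding transcripts, 6.33% with scores of at least 100, 25.3% with the gemcitabine list, 16.2% with shared peaks, 16.6% without neighbouring starts, and 25.1% after a filter on fragments. In the same order up to the neighbours, the share among genes at 1 FPKM or more (34.1%) was 33.0%, 36.1%, 38.6%, 33.1%, 28.7%, 32.9%, 9.88%, 39.1%, 25.4% and 28.9%; it was 30.8% for genes over 0.1 FPKM and 30.6% for genes with 10 fragments. The share among genes with no fragment (0.937%) was 1.68% with 2.5 kb, 2.49% with 5 kb, 0.568% with protein-coding starts, 0.226% with scores of at least 100, 0.549% with shared peaks, 0.461% without neighbours, 2.22% for genes under 0.1 FPKM and 1.48% for those under 3 fragments in each library. These last definitions gave 6645 and 5433 absent genes in place of 3465. With either library left out, 11725 to 11778 genes reached 1 FPKM, 4192 to 4267 had no fragment, and the open shares were 21.9%, 34.0% and 1.11% to 1.17%. Expressed genes were open 15.3 to 62.8 times as often as absent genes over all alternatives (36.4 as reported). The lowest value took genes under 0.1 FPKM as absent. With absence kept as no fragment, the lowest was 15.5, at a window of 5 kb. The correlation between libraries was 0.993 with a pseudocount of 0.1 and with a filter at 0.1 FPKM.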
